A study of Mus musculus with 8 samples.

Results

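Bone marrow stromal cells kept in growth medium during a spaceflight were compared with the same kind of cells kept in growth medium on the ground. The comparison rests on 4 of the 8 arrays of the series, chosen by their titles, with 2 flight arrays against 2 ground-based arrays. The cells came from the marrow of C57BL/6 mice aged 6 to 8 weeks and were grown on Skelite, a ceramic scaffold that serves as a bone substitute. Affymetrix arrays measured RNA levels, given here as log2 of the deposited intensity.

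The 2 flight arrays come from constructs in automated hardware that ran within KUBIK, a small incubator of the European Space Agency. The first held cells in microgravity. The second held cells on a 1g centrifuge in flight, although its label for the type of gravity also reads microgravity, against its title and description. Among the ground-based arrays, one held the constructs in incubation units with manually operated hardware at normal gravity, and the other held them in 24-well culture dishes at normal gravity. Each condition has 1 array, and since the labels do not state whether separate cultures or animals were used, the p-values cover no more than how far these arrays differ. Flight and the automated hardware cannot be told apart in this design, nor can flight and the source of the cells, since the labels do not state whether flight and ground-based cells came from the same mice, and within the flight pair neither can gravity and the single array that carries it. The osteoinductive medium has its own 4 arrays in the same conditions, although the description of its flight centrifuge array names both media. They were used to ask whether the flight difference is unlike the one in growth medium. They also entered the choice of probe set, the filter on dim genes and some alternative fits, but not the main growth medium fit itself.

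Marrow stromal cells are adherent fibroblast-like cells that make collagen-rich matrix and can be driven towards bone, cartilage or fat. They divide in culture, and entry into and passage through mitosis depend on a program of late cell cycle genes that is switched on together. Imprinted genes, which are expressed from a single parental copy, are abundant in embryonic and neural tissue, and many of them act on growth.

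Median intensities of the 4 growth medium arrays lay between 180.92 and 196.42, and the number of arrays limits the precision. The summed intensity of 19 stromal markers was 29272 and 33594 on the microgravity and centrifuge arrays, against 37273 and 35668 on the ground hardware and laboratory arrays. Of the 18 that passed the filter on dim genes, 13 had a difference below 0 and 9 had both flight arrays below both ground-based arrays (35.1% of all genes tested did), with a median log2 difference of -0.23. The level of Col1a1, the main chain of type I collagen, was 12.56 and 12.62 on the microgravity and centrifuge arrays, against 12.64 and 12.56 on the ground hardware and laboratory arrays (log2 intensity), and these overlap. The leukocyte marker Ptprc was dim, at 7.04 and 7.08 on the flight arrays against 7.26 and 7.09 on the ground-based arrays. With limma and Benjamini-Hochberg adjustment at 0.05, 1089 of 13205 genes differed between flight and ground-based arrays (8.25%), of which 857 rose (6.49%) and 232 fell (1.76%). Rises beyond 2-fold numbered 360 (2.73%) and falls beyond 2-fold 43 (0.326%). The median over all 13205 genes was -0.08. When each array was centred on its own median, the split was 652 rises against 333 falls and the median of all genes moved to -0.17. The number of calls was 6912 without the flight centrifuge array, where falls outnumbered rises (2179 rises against 4733 falls), 1688 without the flight microgravity array, 586 without the laboratory array and 642 without the ground hardware array, each fit assuming that the lone remaining array varies like the others. In the fit of 13205 genes, of 185 genes past the threshold that are members of the lists or named here, 69 were not past it without the laboratory array or without the ground hardware array; their differences lay between 0.51 and 0.88 in size, and the genes with larger differences kept their calls. Differences across genes were wider between the 2 flight arrays (SD of 0.283 on the log2 scale, microgravity minus centrifuge) than between the 2 ground-based arrays (0.145, ground hardware minus laboratory).

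**Figure D1:**
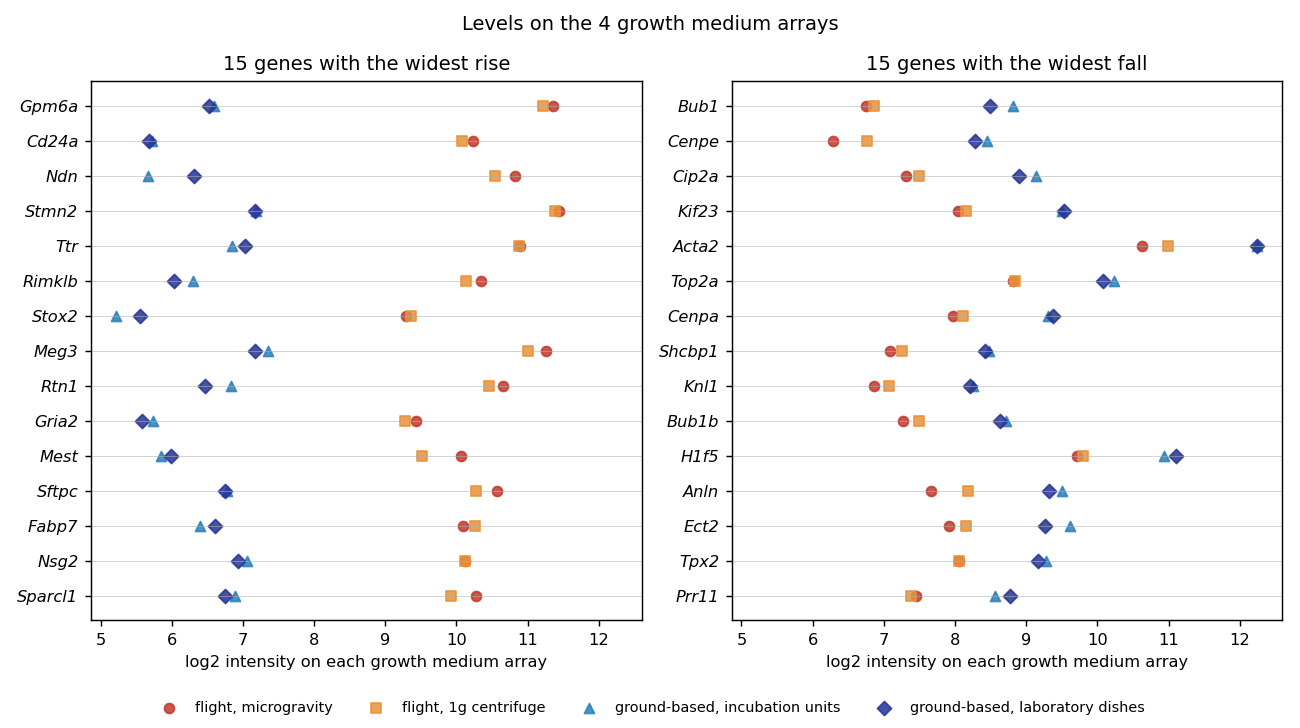
Log2 intensity (horizontal axis) of the 15 genes with the widest gap upwards and the 15 with the widest gap downwards between flight and ground-based arrays in growth medium, 1 point per array, with the 2 flight arrays in red and orange and the 2 ground-based arrays in blue. The genes were chosen so that the flight points lie to one side of the ground-based points in every row. Gpm6a lies at 11.36 and 11.21 in flight against 6.59 and 6.52 on the ground-based arrays, and Bub1 at 6.75 and 6.86 in flight against 8.81 and 8.50.

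Counts within gene lists are given over all members with a probe set, in the limma fit with no filter on dim genes, where 6.31% of 19938 genes rose and 1.54% fell, and where the arrays of 23.4% of genes did not overlap upwards and of 28.1% did not overlap downwards. The shares that rose and fell were 13.5% and 20.6% of the 19938 genes without the flight centrifuge array, 6.67% and 2.0% without the flight microgravity array, 3.93% and 0.702% without the laboratory array, and 4.27% and 0.828% without the ground hardware array, and counts given for a fit that leaves out an array are to be read against these. Values of single genes are from the fit of 13205 genes unless a gene is called dim. Dim means that its mean level over the 8 arrays of both media was under 7.14 (log2 intensity). The value of a dim gene comes from the fit with no filter.

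Genes of nerve cells rose furthest. Of 27 neuronal markers, 25 rose and none fell, and the 2 flight arrays lay above the 2 ground-based arrays in 27 of 27. The median log2 difference of these markers was 1.81, beside -0.03 over all 19938 genes. Gpm6a, a membrane glycoprotein of neurons, had a level of 11.36 and 11.21 on the microgravity and centrifuge arrays, against 6.59 and 6.52 on the ground hardware and laboratory arrays. The difference of 4.73 ± 0.14 (SE, log2, n = 2 arrays a side; limma adjusted p = 4.83e-07) is a 26.5-fold rise. Stmn2, a regulator of microtubules in growing axons, had a level of 11.44 and 11.39 on the flight arrays, against 7.19 and 7.17 on the ground-based arrays. Its difference was 4.24 ± 0.13 (limma adjusted p = 4.83e-07). Both pairs of arrays were close together for Gpm6a and Stmn2, and flight was far above ground-based.

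The neuronal rise covered structural, synaptic and RNA-binding proteins. Among cytoskeletal proteins, Tubb3, a neuron-specific tubulin, had a level of 10.08 and 9.75 in flight against 7.51 and 7.43 on the ground-based arrays, a difference of 2.45, and the microtubule-binding proteins Dcx, Map2 and Mapt differed by 2.97, 2.23 and 2.11. Of the vesicle and synapse proteins, Syt1, a calcium sensor for transmitter release, differed by 2.96, Syp by 2.38 and Snap25 by 1.80. Gria2, a subunit of AMPA glutamate receptors, had a level of 9.43 and 9.27 in flight against 5.74 and 5.58 on the ground-based arrays. Its difference was 3.69 ± 0.14 (limma adjusted p = 1.32e-06). Rtn1, a protein of the endoplasmic reticulum in neurons, differed by 3.90 and Elavl3, an RNA-binding protein of neurons, by 1.78. Gap43, an axon growth protein, rose by 0.76 and was bright in both groups, with a mean level of 12.02 in flight against 11.27. Ncam1 and Scg2 did not pass the threshold, with differences of 0.25 and 0.41. Left out in turn, each of the 4 arrays left between 21 and 26 of the 27 markers past the threshold. The summed intensity of the list was 26023 and 24127 on the flight arrays against 7512 and 7698 on the ground-based arrays. In RNA from whole cultures, a different number of cells of a type and a different amount of RNA per cell cannot be told apart.

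Glial markers rose in smaller number. Of 16 markers, 6 rose and none fell, with a median of 0.25. Fabp7, a fatty acid-binding protein of radial glia, had a level of 10.10 and 10.27 in flight against 6.40 and 6.61 on the ground-based arrays, a difference of 3.68 ± 0.15 (limma adjusted p = 1.40e-06). Slc1a3, a glutamate transporter of astrocytes, differed by 1.71 and Aldh1l1, a folate enzyme of astrocytes, by 1.27. Without the laboratory array 4 of the 16 rose, and without the flight centrifuge array 9.

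Imprinted genes contributed several of the widest gaps. Of 21 imprinted genes on the list, 11 rose and none fell. Ndn, a MAGE-family protein that restrains the cell cycle in neurons, had a level of 10.82 and 10.54 on the microgravity and centrifuge arrays, against 5.67 and 6.31 on the ground hardware and laboratory arrays. Its difference was 4.69 ± 0.21 (limma adjusted p = 2.80e-06). Mest, an enzyme-like protein of embryonic mesoderm, had a level of 10.06 and 9.51 in flight against 5.85 and 5.99 on the ground-based arrays, a difference of 3.87. Igf2, the fetal insulin-like growth factor, had 10.62 and 10.53 against 7.84 and 8.00, a difference of 2.66. Nnat, a small proteolipid of developing brain, differed by 3.27, the zinc finger protein Peg3 by 2.34 and the cell cycle inhibitor Cdkn1c by 1.64. The other 10 genes of the list did not pass, among them Grb10 at -0.37, Igf2r, the receptor that clears Igf2, at -0.56, Peg10 at 0.07 and Dcn at -0.18. Between 10 and 12 of the 21 rose when each array was left out, and without the flight centrifuge array 4 fell.

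The genes between Dlk1 and Dio3 on chromosome 12 were then described as a set, chosen after their values were seen. This imprinted cluster holds protein-coding genes expressed from the paternal copy and a long run of non-coding RNAs, snoRNAs and miRNAs expressed from the maternal copy. Of 48 genes of the cluster with a probe set, 32 rose, none fell, and 43 had both flight arrays above both ground-based arrays. Meg3, the first non-coding RNA of the maternal run, had a level of 11.26 and 11.01 on the microgravity and centrifuge arrays, against 7.35 and 7.16 on the ground hardware and laboratory arrays. Its difference was 3.87 ± 0.15 (limma adjusted p = 1.32e-06). Rian, the next non-coding RNA and host of snoRNAs, was dim on average, at 8.13 and 7.97 in flight against 6.02 and 5.88, and differed by 2.10. The paternal genes did not move as one. Dlk1, a membrane protein that holds back fat cell formation, had 9.88 and 9.78 in flight against 8.31 and 8.87 and rose by 1.24. Rtl1 was at 6.96 and 7.13 in flight against 7.07 and 6.99, and Dio3, which inactivates thyroid hormone, at 6.37 and 6.41 against 6.36 and 6.53. Both were dim and neither passed the threshold, with differences of 0.01 and -0.05, and their arrays overlap.

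Of the 40 miRNA genes in the cluster, 27 rose and none fell (median 0.88), beside 7 rises and 2 falls among the 257 other miRNA genes (median 0.08). With no filter, the 7 rises outside the cluster were Mir690 at 1.56, Mir137 at 1.32, Mir181b-1 at 1.09, Mir153 at 0.84, Mir325 at 0.71, Mir9-1 at 0.61 and Mir340 at 0.58. With the filter on dim genes, 8 of 17 miRNA genes of the cluster and 1 of 101 other miRNA genes rose. Of the 17 cluster genes, 8 rose under quantile normalization and 7 under median centring, and none of the 101 others did under either. When each array was left out, between 23 and 38 of the 40 cluster genes rose. The probe sets are assigned to miRNA genes and were hybridised with amplified total RNA, so mature miRNA was not measured. The mature sequences of the cluster genes with wide rises are given below from RefSeq (GRCm38.p6), which had an entry for 36 of the 36 miRNA genes that rose or fell. Capitals mark the seed, bases 2 to 8, which pairs with target RNAs. The first 5 belong to genes with differences between 1.96 and 2.36 on the log2 scale, of which Mir495, Mir382 and Mir377 were dim. The sequences are examples, and Mir380, also dim, with a difference of 2.24, is not among them. The last pair, from neighbouring genes, share a seed.
mmu-miR-487b-5p: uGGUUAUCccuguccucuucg
mmu-miR-329-3p: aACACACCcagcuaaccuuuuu
mmu-miR-495-3p: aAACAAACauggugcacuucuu
mmu-miR-382-5p: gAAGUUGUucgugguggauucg
mmu-miR-377-3p: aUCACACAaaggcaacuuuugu
mmu-miR-379-3p: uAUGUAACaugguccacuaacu
mmu-miR-411-3p: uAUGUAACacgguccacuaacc

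Mir487b, the source of the first of these sequences, had a level of 8.79 and 8.61 on the flight arrays, against 6.36 and 6.31 on the ground-based arrays. Its difference of 2.36 was the widest among the miRNA genes of the cluster. Mir379 and Mir411, which share the seed AUGUAAC, were dim on average and differed by 1.58 and 1.83. Mir411 had 6.93 and 7.11 in flight against 5.54 and 4.84, so its ground-based arrays were further apart than its flight arrays. The cluster genes with differences under 0.40 included the dim Mir299a, Mir666 and Mir668, and none of these 3 passed.

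**Figure D2:**
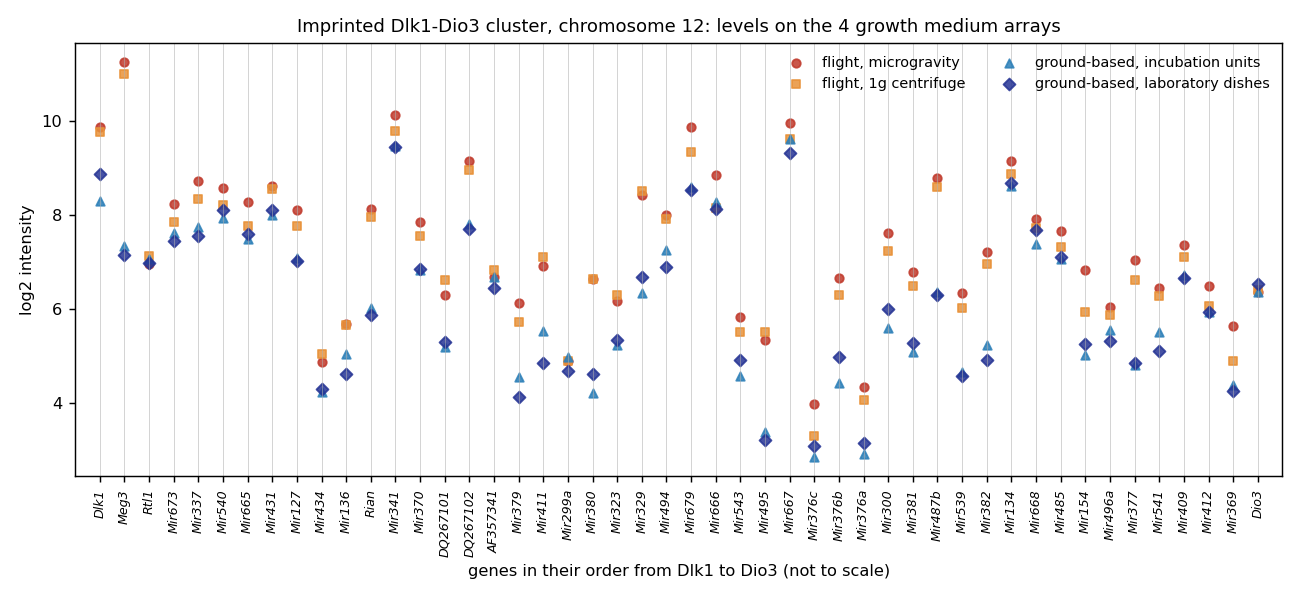
Log2 intensity (vertical axis) of the 48 genes from Dlk1 to Dio3 in their order on chromosome 12, 1 point per growth medium array. The flight points (red circles and orange squares) lie above the ground-based points (blue) for 43 of the 48 genes, with the widest gap at Meg3, while the points of Rtl1 and Dio3 overlap.

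Genes of skeletal muscle rose as well. Of 30 muscle genes 16 rose and none fell, with a median of 0.78, and 25 had both flight arrays above both ground-based arrays. Acta1, the actin of skeletal muscle fibres, had a level of 10.87 and 10.89 on the microgravity and centrifuge arrays, against 8.46 and 8.11 on the ground hardware and laboratory arrays. Its difference was 2.60 ± 0.16 (limma adjusted p = 1.51e-05). Actc1, the cardiac and fetal actin, differed by 2.49. Myosin heavy chains of developing muscle were among the rises, with Myh8 at 10.24 and 10.09 in flight against 7.74 and 7.86, and Myh3 at 8.51 and 8.30 against 6.64 and 6.62. The giant sarcomere protein Ttn differed by 2.07, the Z-disc protein Actn2 by 1.92 and Ckm, the muscle creatine kinase, by 1.77. The summed intensity of the 30 genes was 14454 and 13340 on the flight arrays against 5699 and 5323 on the ground-based arrays. Between 15 and 23 of them rose when each array was left out.

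Smaller sets of other tissues also gave rises. Of 20 cartilage genes 8 rose, with Matn1, a cartilage matrix protein, at 7.95 and 8.01 in flight against 6.82 and 6.88, and Col2a1, the cartilage collagen, at 9.77 and 9.46 against 8.54 and 8.53. The count was 16 without the flight centrifuge array, 4 without the laboratory array and 5 without the ground hardware array. Of 20 endothelial genes 6 rose, with Ramp2, a receptor partner, differing by 1.11 and Kdr, the main VEGF receptor, by 0.87. Without the flight centrifuge array this count was 13, and without the laboratory array it was 2. Of 26 lung and epithelial genes 7 rose. Sftpc, the surfactant protein of alveolar type II cells, had 10.56 and 10.27 in flight against 6.78 and 6.75, a difference of 3.65 ± 0.15 (limma adjusted p = 1.62e-06), and the phosphate transporter Slc34a2 differed by 1.00. The lung count was 17 without the flight centrifuge array, 3 without the laboratory array and 4 without the ground hardware array.

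Among 15 liver and plasma protein genes only Ttr and Trf rose. Ttr, the carrier of thyroid hormone and retinol in plasma and cerebrospinal fluid, had a level of 10.90 and 10.88 in flight, against 6.84 and 7.03 on the ground-based arrays. Its difference was 3.95 ± 0.14 (limma adjusted p = 1.05e-06). The defining liver genes Alb and Afp were dim on all 4 arrays, Alb at 6.36 and 6.34 in flight against 6.37 and 6.04, and did not pass. Of 7 erythroid genes none rose and the transferrin receptor Tfrc fell by 0.59. Of 25 leukocyte genes Lyz1 rose by 1.67 and the dim Mrc1 by 0.87, and none fell. The nerve, muscle, cartilage, vessel and lung marker lists thus moved with the same flight arrays, and the part of any of these cell types in the other results was not tested.

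Genes of mitosis fell. Of 39 genes of mitosis and cytokinesis, 35 fell and none rose, both flight arrays lay below both ground-based arrays in 39 of 39, and the median log2 difference was -1.03. Bub1, a kinase of the spindle checkpoint, had a level of 6.75 and 6.86 on the microgravity and centrifuge arrays, against 8.81 and 8.50 on the ground hardware and laboratory arrays. Its difference of -1.85 ± 0.15 (limma adjusted p = 7.82e-05) is a 3.59-fold fall. Cenpe, a kinetochore motor, had 6.28 and 6.76 in flight against 8.44 and 8.28, a difference of -1.84. Flight was lower on both arrays for each of these genes, and no other named fall was deeper.

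The falls spanned the stages of division. At entry into mitosis, the kinase Cdk1 had a level of 8.14 and 8.59 in flight against 9.27 and 9.48, a difference of -1.01, and its partner Ccna2 differed by -1.05. Top2a, which untangles sister chromosomes, was at 8.81 and 8.84 in flight against 10.23 and 10.09, a difference of -1.34 ± 0.14 (limma adjusted p = 0.000271). At the centromere, the histone variant Cenpa differed by -1.30 and the scaffold Knl1 by -1.27. Spindle proteins fell too, with Kif11, a motor that separates the poles, at -1.48 and Tpx2, the activator of Aurka, at -1.16. In cytokinesis, Kif23, a motor of the central spindle, was at 8.05 and 8.16 in flight against 9.51 and 9.53 and differed by -1.41 ± 0.13 (limma adjusted p = 0.000170). Ect2, which activates RhoA at the cleavage furrow, differed by -1.41 and the ring scaffold Anln by -1.49. Mki67, a marker of dividing cells, was at 7.84 and 7.89 in flight against 8.96 and 8.83. The genes that did not pass were Birc5, Ccnb2, Espl1 and Foxm1, at -0.49, -0.58, -0.49 and -0.38. Between 28 and 39 of the 39 fell when each array was left out.

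Genes of DNA replication moved less. Of 35, 4 fell and none rose, with a median of -0.29, and 28 had both flight arrays below both ground-based arrays, beside 28.1% of all genes. Dbf4, the partner of the kinase that fires origins, was at 7.55 and 8.25 in flight against 9.04 and 9.12, a difference of -1.18. The nucleotide enzymes Tyms and Rrm1 differed by -0.67 and -0.51. The count of falls was 18 without the flight centrifuge array, 7 without the flight microgravity array and 1 without either of the ground-based arrays. The cell cycle inhibitor Cdkn2c fell by 0.73.

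Since the mitosis genes fell together, their promoters were searched on both strands for the cell cycle homology region, a short element of genes switched on late in the cell cycle, in RefSeq windows of 300 bases (GRCm38.p6, 250 before to 50 after the start). Of the 28 genes of the list that were tested in the fit of 13205 genes and have a promoter in the table, 20 hold TTTGAA, beside 20.2% of 27025 genes with a promoter in the table. Among the 24 of them that fell it is held by 17, so the share is alike in the list and in its falls. The related TTTAAA is held by 9 of the 28 and 7 of the 24, beside 14.9% of all. A match is a description of letters, and binding was not measured. The windows below run from 120 bases before to 25 after the start of 4 genes among the widest falls, with the TTTGAA match in capitals; in Top2a it is on the opposite strand and reads TTCAAA.
Kif23, chr9:61946775-61946919, minus strand: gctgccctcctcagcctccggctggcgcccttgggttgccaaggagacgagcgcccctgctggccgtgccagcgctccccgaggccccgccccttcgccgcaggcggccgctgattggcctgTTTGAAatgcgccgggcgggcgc
Top2a, chr11:99024165-99024309, minus strand: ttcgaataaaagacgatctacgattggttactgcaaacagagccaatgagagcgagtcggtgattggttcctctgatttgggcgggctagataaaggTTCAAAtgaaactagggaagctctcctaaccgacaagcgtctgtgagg
Cenpa, chr5:30666766-30666910, plus strand: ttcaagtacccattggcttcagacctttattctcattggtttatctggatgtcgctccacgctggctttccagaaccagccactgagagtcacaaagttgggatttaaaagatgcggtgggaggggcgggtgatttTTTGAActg
Ect2, chr3:27153854-27153998, minus strand: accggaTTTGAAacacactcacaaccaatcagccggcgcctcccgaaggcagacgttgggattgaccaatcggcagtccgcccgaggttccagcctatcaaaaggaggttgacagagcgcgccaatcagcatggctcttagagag

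Some genes of protein folding in the endoplasmic reticulum fell. Of 30 unfolded protein response genes, 10 fell in the fit with no filter and 8 in the fit of 13205 genes, none rose, and 27 had both flight arrays below both ground-based arrays. Creld2, a secreted folding factor, had a level of 9.28 and 10.01 on the microgravity and centrifuge arrays, against 10.87 and 10.90 on the ground hardware and laboratory arrays. Its difference was -1.24 ± 0.22 (limma adjusted p = 0.00679), and the microgravity array was the lower by far. Sdf2l1, a partner of the chaperones, was at 9.07 and 9.46 in flight against 10.33 and 10.38, a difference of -1.09, and the chaperone Hyou1 differed by -0.97. Ddit3, a transcription factor of prolonged stress, was at 9.17 and 9.72 in flight against 10.46 and 10.32. The disulfide isomerase Pdia4 and the degradation factors Edem1 and Sel1l differed by -0.76, -0.75 and -0.69. Hspa5, the main chaperone of this compartment, did not pass, at -0.17, nor did the transcription factors Xbp1 at -0.39 and Atf4 at -0.28. The count of 10 falls was 27 without the flight centrifuge array, 8 without the flight microgravity array, 6 without the laboratory array and 4 without the ground hardware array.

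The endoplasmic reticulum stress element, CCAAT and CCACG with 9 bases between them, searched on both strands, lay in the promoter windows of 9 of 27 of these genes, beside 0.137% of all genes. Among those that fell it was in 1 of 6, Creld2, whose match lies on the opposite strand and is shown with its surroundings, in capitals.
Creld2, chr15:88819460-88819598, plus strand: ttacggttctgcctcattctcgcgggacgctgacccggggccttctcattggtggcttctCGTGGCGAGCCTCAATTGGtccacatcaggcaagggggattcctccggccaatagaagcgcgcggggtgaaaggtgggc

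Contractile and adhesion genes fell in part. Of 28 genes of the actin cytoskeleton and myofibroblasts, 9 fell and none rose. Acta2, the smooth muscle actin of myofibroblasts, had a level of 10.63 and 10.99 in flight, against 12.25 and 12.25 on the ground-based arrays. Its difference was -1.44 ± 0.16 (limma adjusted p = 0.000395). Cnn2, a calponin, differed by -1.19, the heavy chain of non-muscle myosin Myh9 by -0.82, the actin crosslinker Flna by -0.78 and the nuclear lamin Lmna by -0.65. The count of 9 was 16 without the flight centrifuge array, 4 without the laboratory array and 3 without the ground hardware array. Of 24 focal adhesion genes 3 fell, namely the integrin chains Itga5 at -0.78 and Itgav at -0.73 and the adaptor Parva at -0.57. They were 11 without the flight centrifuge array and 1 without either of the ground-based arrays. None of 18 targets of YAP and TEAD, which respond to cell stretch, passed in either direction, and they were 1 rise and 11 falls without the flight centrifuge array.

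Some matrix genes passed the threshold in each direction, where 6.31% of all 19938 genes rose and 1.54% fell. The rises of 1 of 20 collagen genes and 2 of 23 protease genes are near that share of rises. Of 20 collagen genes, Col6a3 and Col6a2, chains of type VI collagen, fell by 0.72 and 0.65, and Col14a1, a fibril-associated collagen, rose by 1.02. Of 26 matricellular and proteoglycan genes 7 rose and none fell. Eln, the precursor of elastic fibres, was at 10.16 and 9.85 in flight against 8.65 and 8.58, a difference of 1.39 ± 0.15 (limma adjusted p = 0.000395), and Fbn2, the fibrillin of developing tissue, differed by 1.22. Postn, a matricellular protein of periosteum, was at 9.60 and 9.34 in flight against 8.57 and 8.59. Among the matrix proteases, Mmp13, a collagenase of cartilage and bone, rose by 1.13, while Timp1, an inhibitor of these enzymes, fell by 0.82 and the urokinase receptor Plaur by 0.77. Without the flight centrifuge array 10 of 26 matricellular genes, 7 of 20 collagen genes and 11 of 23 protease genes fell, beside 20.6% of all genes. Neither collagen fall passed without the laboratory array or without the ground hardware array. In the fit of 13205 genes the fall of Timp1 did not pass without the laboratory array, nor that of Plaur without the ground hardware array.

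Of 20 genes of osteoblast differentiation 2 rose and none fell. Ibsp, the bone sialoprotein of mineralising matrix, had a level of 8.58 and 8.13 in flight, against 6.07 and 6.53 on the ground-based arrays. Its difference was 2.05 ± 0.20 (limma adjusted p = 0.000197). Dlx5, a transcription factor of early osteoblasts, was at 9.14 and 7.96 in flight against 7.38 and 7.13, so the microgravity array stood well above the centrifuge array. Alpl, the alkaline phosphatase of bone, at 0.42, Sparc, at -0.15, and Bmp2, at -0.21, did not pass. Neither did Tnfsf11 and Tnfrsf11b, the ligand and decoy receptor that control osteoclasts, at -0.05 and -0.04. Without the flight centrifuge array 7 of the 20 rose and 4 fell, beside 13.5% and 20.6% of all genes, so the falls are at the share of all genes.

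Of 24 fat cell genes 3 rose and none fell, with a median of 0.08; both flight arrays lay above both ground-based arrays in 11 and below them in 6. The lipid carrier Fabp4 rose by 1.20, and the dim Cd36, a fatty acid transporter, and Lpl, a lipase, rose by 2.36 and 0.78. The master regulator Pparg, also dim, was at 7.08 and 6.98 in flight against 6.91 and 7.02 and did not pass. Without the flight centrifuge array 9 of the 24 rose and 6 fell.

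Of 35 genes of Wnt, BMP and IGF signalling 9 rose and none fell, and 18 rose and 9 fell without the flight centrifuge array. Igf2 belongs to this list too. Igfbp5, the main IGF-binding protein of bone, was at 9.87 and 9.61 in flight against 7.80 and 7.98, a difference of 1.84 ± 0.15 (limma adjusted p = 7.15e-05), and Igfbp2 differed by 1.29. Sfrp2, a secreted Wnt antagonist, was at 9.01 and 8.94 in flight against 7.40 and 6.90, a difference of 1.82. The stromal list itself held changes in both directions, and of its 19 markers Eng and Mcam rose by 0.61 each and Pdgfrb, the receptor for PDGF, fell by 0.71. None of these 3 calls remained without the laboratory array or without the ground hardware array, and without the flight centrifuge array 6 of the 19 rose and 10 fell.

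The 2 flight arrays were also set side by side against the mean of the ground-based arrays, with 1 array each and no test. For the lists with the widest moves, the medians on both lay near each other beside the size of the move. The neuronal median was 1.97 in microgravity and 1.70 on the centrifuge, the muscle median 0.81 and 0.75, and the mitosis median -1.02 and -1.04. By gene, 4 of 27 neuronal, 5 of 30 muscle and 22 of 39 mitosis genes were lower in microgravity than on the centrifuge. Of the 857 rises 712, and of the 232 falls 191, were further from the ground-based mean in microgravity than on the centrifuge. The medians of other lists lay apart. The unfolded protein response median was -0.73 in microgravity and -0.29 on the centrifuge, the interferon-stimulated median -0.57 and -0.12, and the NRF2 median -0.52 and -0.16. For the respiratory chain it was -0.30 in microgravity and 0.09 on the centrifuge, and 32 of its 33 genes were lower in microgravity than on the centrifuge, as were 20 of 20 ribosomal protein genes and 28 of 30 unfolded protein response genes. Over all 13205 genes, 8269 were lower in microgravity than on the centrifuge. None of the respiratory chain and ribosomal protein genes was called with all 4 arrays, and of the interferon-stimulated genes only the immunoproteasome subunit Psmb8 was, at -0.57. Without the flight centrifuge array, 22 of 26 interferon-stimulated genes, 12 of 33 respiratory chain genes and 10 of 20 ribosomal protein genes fell, beside 20.6% of all 19938 genes.

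These shifts between the flight arrays ran with brightness. In the brightest 3301 genes the median of microgravity minus centrifuge was -0.32, and in the dimmest 3302 genes it was 0.11. With quantile normalization of the 8 arrays, the median flight minus ground-based difference of the respiratory chain was -0.00, against -0.12 with the values as deposited. That of the immediate early genes turned to 0.01, against -0.13. Other lists stayed below 0, with the unfolded protein response at -0.36, against -0.50, NRF2 at -0.22, against -0.35, interferon-stimulated at -0.22, against -0.34, and ribosomal proteins at -0.10, against -0.20. These medians take both flight arrays together and do not measure the difference between them. The medians of the neuronal and mitosis genes in the fit of 13205 genes were 2.00 and -1.02 under quantile normalization, against 2.00 and -1.03 as deposited. Of the 23 neuronal genes in that fit, 10 had a ground-based mean under the filter on dim genes. The part of array brightness in the difference between the flight arrays was not tested.

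**Figure D3:**
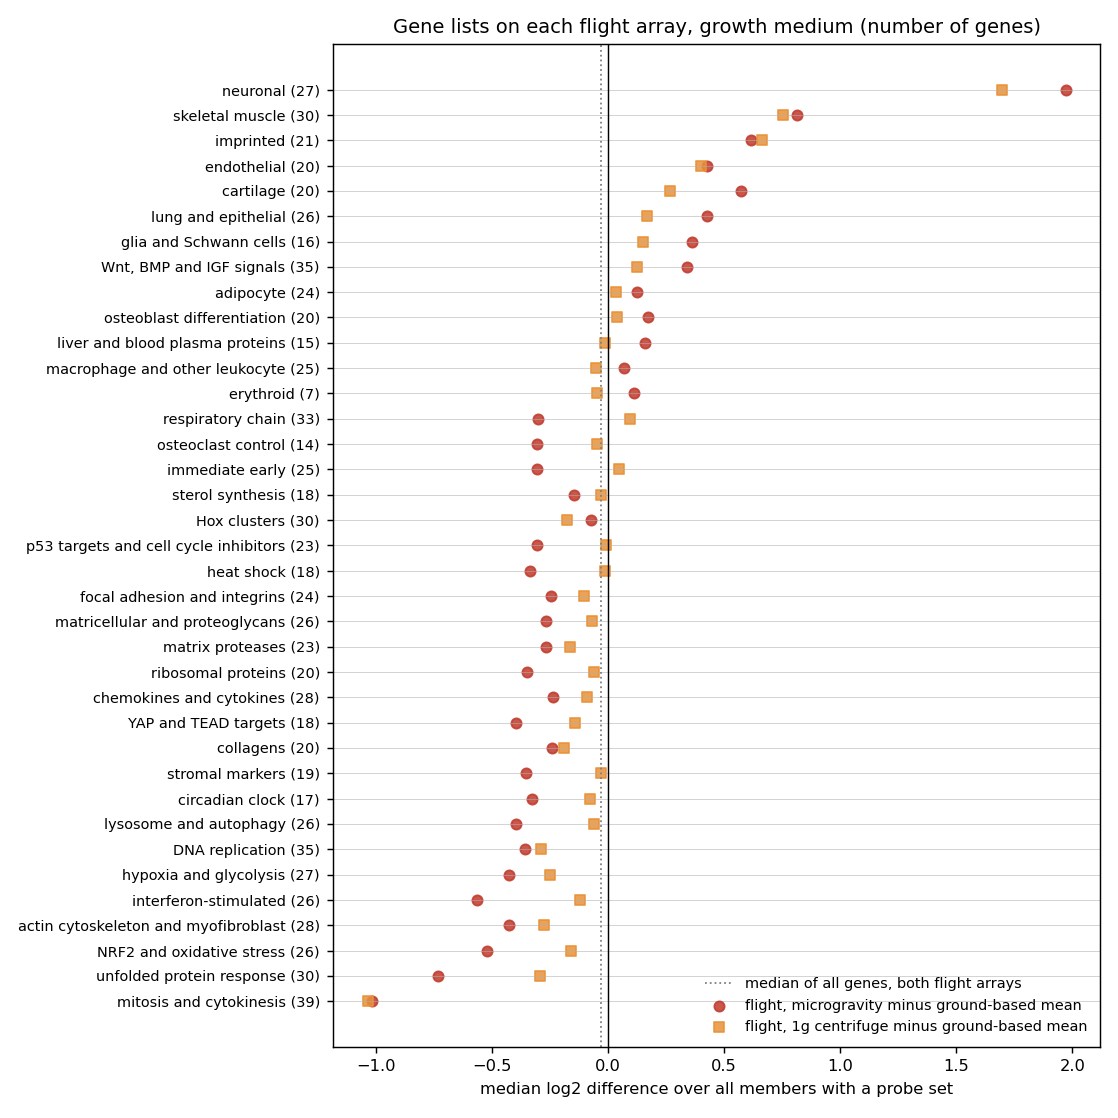
Median log2 difference (horizontal axis) of each gene list in growth medium, over all members with a probe set, for the microgravity array (red circles) and the centrifuge array (orange squares), each minus the mean of the 2 ground-based arrays; the dotted line is the median of all genes. Neuronal genes lie at the top, at 1.97 and 1.70, and mitosis genes at the bottom, at -1.02 and -1.04, with both arrays close; the unfolded protein response lies at -0.73 in microgravity and -0.29 on the centrifuge.

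**Figure D4:**
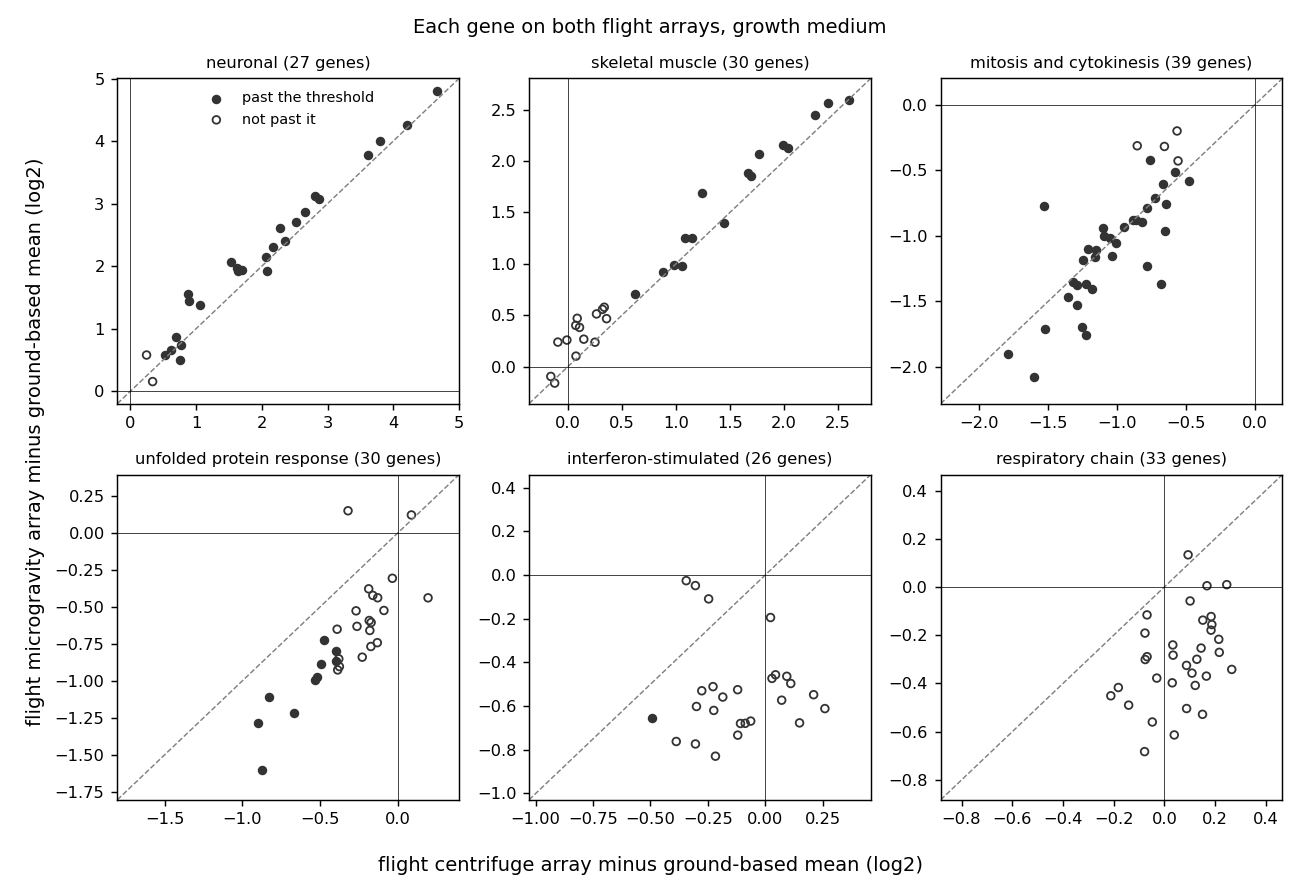
Each gene of 6 lists, with the microgravity array minus the ground-based mean on the vertical axis and the centrifuge array minus the ground-based mean on the horizontal axis (log2); filled points passed the limma threshold with no filter, and the dashed line marks equal values. Below the line lie 4 of 27 neuronal, 5 of 30 muscle and 22 of 39 mitosis genes, beside 28 of 30 unfolded protein response genes and 32 of 33 respiratory chain genes.

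The flight difference in growth medium was then set against the one in osteoinductive medium, which uses other arrays. The filter on dim genes, however, used the mean over the 8 arrays of both media. Of the 857 genes that rose in growth medium, 327 had a ground-based mean under that filter there. They were tested because other arrays were brighter, so the filter may have partly set their sign in osteoinductive medium. All 857 had a positive difference in osteoinductive medium, and of the 232 that fell in growth medium, 228 had a negative one. The other 4 genes, named after their values were seen, are Fetub, Pi15, Prune2 and Tpcn1. Tpcn1, a cation channel of endosomes and lysosomes, was at 8.79 and 9.05 in flight against 9.69 and 9.62 in growth medium, a difference of -0.73, beside 0.16 in osteoinductive medium. No gene passed the limma test of the difference between the media (0 of 13205, smallest adjusted p = 0.647), and 525 had an unadjusted p under 0.05, where 660 would be expected from uniform p-values. The number that passed was 5 without the flight centrifuge array in growth medium and 15 without the flight microgravity array in growth medium. It was also 15 without the flight centrifuge array in osteoinductive medium, and 0 in the other fits. With the setting of each array (microgravity, centrifuge, ground hardware or laboratory) as a block, chosen after seeing the data, 0 genes passed, the smallest adjusted p was 0.0757 and 635 genes had an unadjusted p under 0.05.

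The 5 genes with the smallest p in each direction of that test without the block are given as values, among them Tpcn1 above. Fabp7 differed by 3.68 in growth medium and 2.68 in osteoinductive medium. Crabp1, a retinoic acid-binding protein, differed by -0.69, beside -2.13 in osteoinductive medium, and the interferon-induced Ifit3 by -0.18, beside -1.76. Tnc, a matrix glycoprotein of remodelling tissue, differed by -0.37, beside -1.50, and the urea transporter Slc14a1 by -0.26, beside -1.38. In the other direction, Prl2c5, a prolactin-family gene, differed by -1.38 in growth medium, beside -0.18 in osteoinductive medium, and Mrc2, a collagen-uptake receptor, by -0.67, beside -0.03. The miRNA genes Mir669b and Mir297b differed by 0.10 and 0.19 in growth medium and by 0.90 and 1.38 in osteoinductive medium. None of these differences between media passed the adjusted threshold in the fit of 8 arrays. Over members in the fit of 13205 genes, the median difference of the mitosis list was -1.03, beside -1.41 in osteoinductive medium. That of the neuronal list was 2.00 beside 1.74, and that of the endothelial list 0.39 beside 0.68. Of these members, 10 of 23 neuronal and 7 of 16 endothelial genes had a growth medium ground-based mean under the filter. They were tested because other arrays were brighter. Against the ground-based mean, the endothelial median in osteoinductive medium was 0.99 in microgravity and 0.37 on the centrifuge.

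**Figure D5:**
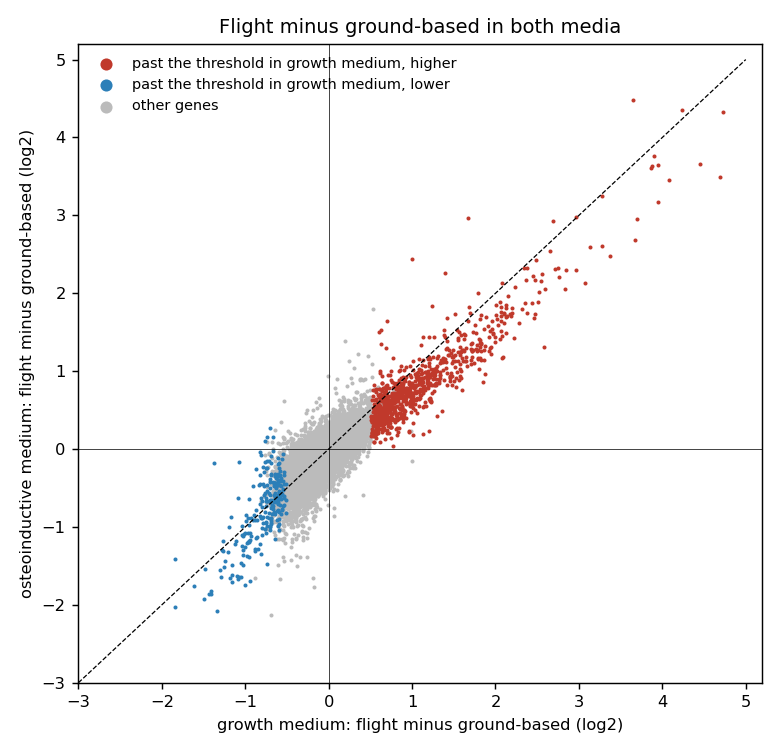
Log2 difference, flight minus ground-based, of each of 13205 genes in growth medium (horizontal axis) and osteoinductive medium (vertical axis), with the 857 genes that rose in growth medium in red, the 232 that fell in blue and the rest in grey; the dashed line marks equal values. Red points lie above 0 on the vertical axis and 228 of the 232 blue points below it.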

How the data were processed

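RNA of 8 samples was measured on Affymetrix whole-transcript arrays, of which 4 are the growth medium arrays. The authors deposited linear intensities, 35557 probe sets in all, and per the submitters' processing notes RMA and GCRMA were used, without saying which gave these values. From these intensities log2 was taken with no further scaling. Of the probe sets, 21789 have 1 gene in the platform annotation, 1621 have several and 12147 are unnamed here; 21698 gene IDs matched RefSeq (GRCm38.p6), which updated 0 symbols. Each gene was read from its single-gene probe set of highest mean over the 8 arrays of both media (19938 genes). Genes with that mean under the 40th percentile of all probe sets, 7.14 in log2 intensity, were left out of the main fit, leaving 13205.

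Flight was compared with ground-based arrays by limma 3.58.1 in R 4.3.3 (lmFit and eBayes, 2 residual degrees of freedom, two-sided, Benjamini-Hochberg over all genes, threshold 0.05). The difference between media was tested on all 8 arrays in 4 groups as an interaction, and again with the setting of each array as a block. The named genes are, among those past the threshold whose arrays do not overlap and which are not predicted genes, the 15 with the widest gap in each direction. To these come the 5 in each direction with the smallest interaction p among all genes tested that are not predicted genes, and examples of 38 gene lists. The comparison, its lists and its rules were chosen with earlier results of these data known. On simulated arrays of 13205 genes, 100% of 2-fold and 27% of 1.41-fold changes were recovered in the growth medium comparison, with 11.2% false calls. In the interaction 81% of 2-fold and 5% of 1.41-fold changes were recovered. All simulated arrays had independent noise with the spread of the growth medium arrays. Recovery is thus overstated for genes with a wider spread in osteoinductive medium, such as Sftpc (SE of 0.98 in the interaction against 0.15 in growth medium). Alternatives to the scaling, filter, offset, prior variance, probe set choice and arrays were run.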

Additional observations from a re-analysis of the deposited data

How the results depend on the processing

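The count of 1089 genes past the threshold in growth medium was 355 with a filter at the 60th percentile, which tests 8891 genes and of whose calls 355 are among the 1089, and 1833 with all 8 arrays in 1 fit, of which 1070 are among the 1089. Leaving out 1 array gave between 586 and 6912 calls, and with no filter, an alternative chosen after seeing the data, between 924 and 6793 (1728 without the flight microgravity array). Quantile normalization (1300), median centring (985), no filter (1566), 32 added before log2 (960), an intensity trend (1418) and the mean of a gene's probe sets (1077) stayed within 1.5 times. The share of rises among the calls was 78.7%, and 66.19% under median centring, 58.32% in the 8-array fit and 31.52% without the flight centrifuge array. The test of the difference between media gave 0 calls, and between 0 and 15 when 1 array was left out. Of 185 genes named or listed past the threshold none changed sign under any alternative. The 30 genes with the widest gaps kept their calls wherever they were tested. They were chosen by those gaps on the same arrays, so this is no separate support. The causes of these differences were not tested. Each setting has 1 array in each medium, and with the setting as a replicate block, chosen after seeing the data, the test of the difference between media again gave 0 calls (smallest adjusted p = 0.0757, against 0.647 without the block). The growth medium comparison has 1 array per setting, so no block could be fitted there. With 2 arrays a side, 27% of simulated 1.41-fold changes were found.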

Other observations

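Some genes outside the groups above also separated flight from ground-based arrays. Gh, the pituitary growth hormone, rose by 1.59 ± 0.18 (SE, log2; limma adjusted p = 0.000606), while Pomc, another pituitary hormone gene, differed by 0.11 and did not pass. Aldoc, an aldolase of brain, was at 10.23 and 9.96 on the microgravity and centrifuge arrays, against 7.70 and 7.44 on the ground hardware and laboratory arrays. Of the 27 genes of hypoxia and glycolysis, among which it is counted, 4 rose and 2 fell with no filter (median -0.32). The other rises were the glucose transporter Slc2a3 at 1.02, the phosphofructokinase Pfkp at 0.83 and Pfkfb3, which makes an activator of that enzyme, at 0.77, and the falls were the collagen prolyl hydroxylases P4ha1 and P4ha2 at -0.57 and -0.69. Without the flight centrifuge array 5 of the 27 rose and 14 fell, and without the laboratory array 3 rose and none fell. The sterol synthesis genes Hmgcs1 and Dhcr7 rose by 0.69 and 0.66, and the clock repressors Bhlhe40 and Bhlhe41 fell by 0.63 and 0.60. None of these 4 sterol and clock calls remained in both fits that leave out a ground-based array.

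Of 5 genes of the Y chromosome, all dim, 2 rose in the fit with no filter; they were 3 without the flight centrifuge array (Kdm5d as well) and 1, Eif2s3y, without either of the ground-based arrays. Eif2s3y, a translation factor gene, was at 7.10 and 6.81 in flight against 5.14 and 5.09 on the ground-based arrays, and Uty, a histone demethylase gene, at 5.97 and 5.87 against 5.18 and 5.38. Kdm5d, Usp9y and Zfy1 did not pass. Xist, which silences one X chromosome, was bright on all 4 arrays and differed by 0.04. The labels give neither the sex of the donor mice nor whether flight and ground-based cultures came from the same mice, so flight and a different make-up of donors cannot be told apart by these values.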
